A study of Mus musculus with 2 samples.

Results

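Described here are p53 and 9 genes tied to it in mouse embryonic stem (ES) cells: the p53 gene Trp53, its inhibitors Mdm2 and Mdm4, and the p53 target genes Cdkn1a, Phlda3, Ccng1, Bbc3, Bax, Zmat3 and Polk. They were chosen by gene symbol, and all 10 were found among the 51826 genes of the deposited table. The data are total RNA sequencing of v6.5, a pluripotent line from the early mouse embryo, with 1 library labelled wild-type and 1 labelled T29I. Both carry the strain label NBA1-19349. The series is titled after the PRSS1 gene, which encodes a trypsinogen, and the labels name no treatment and no clone. There was 1 library per group and thus no replicate, which is why each difference is stated for this pair of libraries and without a p-value. Genotype, culture and library preparation cannot be told apart here.

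The protein p53 is a transcription factor that is kept scarce in undisturbed cells, because Mdm2, a ubiquitin ligase, marks it for destruction and the related Mdm4 blocks its activity. DNA damage and other stresses release p53, which then switches on genes for cell cycle arrest, cell death and DNA repair. Mdm2 is itself a p53 target, so that p53 feeds back on its own level. In mouse ES cells p53 is known to promote differentiation after DNA damage, in part by repressing Nanog.

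The p53 protein binds DNA at pairs of a 10-base element, and the 300 bases around each annotated start (250 before, 50 after) were searched for exact matches to the p53 half-site consensus, which reads the same on both strands. RefSeq promoters of the GRCm38.p6 build were matched by symbol for 9 of the 10 genes, all but Zmat3, and 6 of these 9 genes had a match. Of all genes with a RefSeq promoter 9.55% had one in any of their promoters. Of the 9338 genes matched to such a promoter that are protein-coding and averaged at least 1 TPM, 8.13% did. TPM (transcripts-per-million) is the deposited unit, an abundance per transcript length. The matches are printed with their surroundings because this element is the one that p53 is known to bind. Each sequence is given on the strand of its gene, 5′ to 3′, with the half-site in capitals.
Cdkn1a: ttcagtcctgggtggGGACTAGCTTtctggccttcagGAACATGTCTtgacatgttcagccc
Trp53: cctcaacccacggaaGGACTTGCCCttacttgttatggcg
Mdm2: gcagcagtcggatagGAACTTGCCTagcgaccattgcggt
Bax: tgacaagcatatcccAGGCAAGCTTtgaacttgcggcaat
Ccng1: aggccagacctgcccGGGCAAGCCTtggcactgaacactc
Polk: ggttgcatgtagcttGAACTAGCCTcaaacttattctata

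The Cdkn1a stretch lies at chr17:29090891-29090952 on the + strand, before the more upstream of 2 RefSeq starts, and its half-sites begin 73 and 51 bases before that start. The second of them is followed directly by a second, inexact copy, so that the letters CATG stand on either side of 6 other bases, the core of a full p53 element. This arrangement, which also reads the same on both strands, was found in 1 of the 14 promoters of the 9 genes and in 0.712% of the 32851 promoters of the table. The first CATG of this core lies within the second Cdkn1a half-site, so the 2 matches overlap. The Trp53 match lies at chr11:69580269-69580308 on the + strand, 75 bases before the start. The others lie on the - strand, for Mdm2 at chr10:117710920-117710959, for Bax at chr7:45467075-45467114, for Ccng1 at chr11:40755447-40755486 and for Polk at chr13:96519394-96519433, between 185 and 231 bases before a RefSeq start. Polk has 2 such starts, and its match lies before the more downstream of them, inside the annotated gene. Of the 6 genes with one, 3 had a higher and 3 a lower T29I level, and of the 3 without one (Mdm4, Phlda3 and Bbc3) 2 were higher and 1 lower. A match is a description of letters and not a site of binding. Bases outside these 300 were not searched, so a gene without a match may still have a p53 element elsewhere.

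The libraries held an estimated 16910002 and 15281662 reads in genes, and the 20 most abundant genes took 16.9% of the wild-type and 27.0% of the T29I TPM. Prss1 was listed at 0 in both, so its level is no check of the labels. The ES cell markers were present in both libraries, with Pou5f1 at 1722 TPM in the wild-type and 1454 TPM in the T29I library and Nanog at 765 and 140 TPM. Of these 8 markers 4 (Nanog, Zfp42, Esrrb and Tdgf1) were lower by 2-fold or more in T29I. Among all genes averaging at least 1 TPM 45.7% were, so this share is near the background. The 4 ran from Zfp42 at 544 and 23.3 TPM to Tdgf1 at 899 and 357 TPM. The 1 marker higher to that extent was Utf1, at 972 and 2459 TPM, against 9.97% of all genes. Once adjusted for length and GC content, the log2 ratios of Nanog, Zfp42 and Esrrb were -1.48, -3.69 and -1.24. Those of Tdgf1 and Utf1 were both -0.40. The list summed to 10868 and 7498 TPM. Of 8 trophoblast markers 4 (Hand1, Krt18, Krt8 and Ascl2) were higher by 2-fold or more in the T29I library, against 9.97% of all genes. That list summed to 121 TPM in the wild-type and 908 TPM in the T29I library. Most of the T29I sum was Krt8 and Krt18, at 389 and 353 TPM. Tfap2c was lower, at 73.4 and 53.1 TPM, and Cdx2 and Elf5 were below 1 TPM in both libraries. Of 10 fibroblast markers, which feeder cells would bring, Lum was at 0 in both libraries and the list summed to 8.30 and 22.1 TPM, most of it Thy1. The part of these markers in the values below was not tested. In such bulk samples fewer cells of a type and less RNA per cell cannot be told apart.

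Most genes stood lower in TPM in the T29I library. The median log2 ratio of the 9375 genes averaging at least 5 TPM was -0.90, on the scale log2(TPM + 1), which understates differences of low genes. Log2 ratios are T29I over wild-type, and each is given as deposited and, where it matters, relative to this shift. A further scale removes the trend of the log2 ratio with transcript length and GC content, which accounted for 44.9% of its variance over protein-coding genes. True differences that run along length or GC content are lost with it too. Counting intervals are 95% exact Poisson intervals from estimated reads and cover counting error only.

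Trp53 RNA was abundant in both libraries, while the RNAs of its 2 inhibitors were at moderate levels in the wild-type library and low in T29I. Trp53 stood at 375 TPM (interval 367 to 383) in wild-type cells and at 443 TPM (435 to 451) in T29I cells, a 1.18-fold higher level. It ranked 368th and 298th of all genes, above 97.2% and 97.4% of the genes that reached 1 TPM. Its log2 ratio was 0.24 as deposited, 1.14 relative to the shift and 0.82 after the length and GC adjustment. Trp53 thus had a higher value in the T29I library on each scale, by an amount that the scale sets.

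Mdm2, the ubiquitin ligase that marks p53 for destruction, was at 73.8 TPM (interval 70.5 to 77.1) in wild-type cells and at 5.45 TPM (4.69 to 6.30) in T29I cells, a 13.5-fold lower level. These values rest on an estimated 1946 and 183 reads. Mdm4, which binds p53 and blocks its activity without being a strong ligase itself, had 61.2 TPM (59.4 to 62.9) in wild-type and 1.17 TPM (0.962 to 1.40) in T29I cells, a 52.4-fold lower level, from 4699 and 114 reads. Mdm4 thus went from a gene above 79.7% of those that reached 1 TPM to one above 2.80% of them. Their log2 ratios were -3.53 and -4.84 in the deposited values, -2.64 and -3.95 relative to the shift and -2.33 and -2.52 after adjustment. Both inhibitors were thus lower by 2-fold or more in the T29I library on all 3 scales. Among all 12943 genes averaging at least 1 TPM, 0.332% had a lower deposited ratio than Mdm4 and 2.28% a lower one than Mdm2.

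Set against each other within a library, the RNA of p53 and of its inhibitors stood in different proportions. TPM is scaled per length, so levels of different genes can be compared as far as the length used holds. The merged length of all annotated exons gave whole reads for Trp53 (4045 bases) and Mdm2 (5083 bases) but not for Mdm4 (14798 bases). A length above that of the RNA present lowers the TPM, so the proportions to Mdm4 are approximate. In the wild-type library Trp53 was 5.08 times the level of Mdm2 and 6.13 times that of Mdm4. In the T29I library it was 81.3 times the level of Mdm2 and 379.6 times that of Mdm4. These proportions carry the difference in transcript length and GC content between the genes, since the longest transcript is 3275 bases at 53.3% GC for Trp53, 3145 bases at 46.2% GC for Mdm2 and 7105 bases at 43.3% GC for Mdm4. Trp53 and Mdm2 thus differ little in length and more in GC content.

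**Figure D1:**
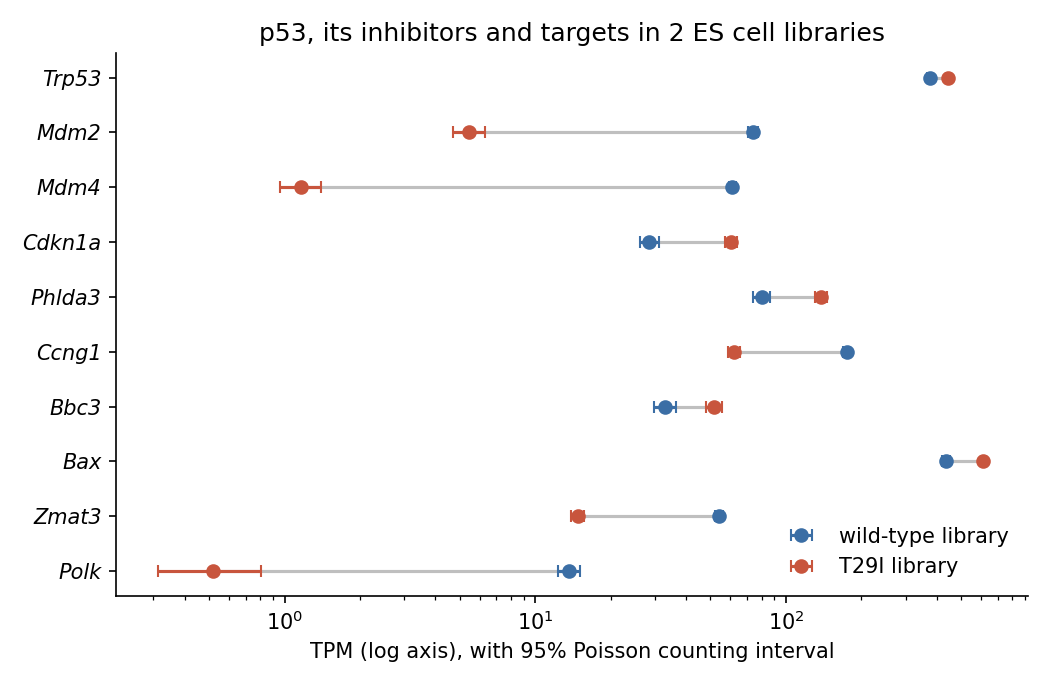
TPM of the 10 genes on a log axis in the wild-type library (blue) and the T29I library (red), 1 library each; bars are 95% Poisson counting intervals and grey lines join the libraries. Mdm2, Mdm4 and Polk are furthest to the left of their wild-type values in the T29I library, while Trp53 moves only from 375 to 443 TPM.

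Cdkn1a, which encodes the cyclin-dependent kinase inhibitor p21 and is the classic p53 target of cell cycle arrest, was higher in the T29I library. It was at 28.5 TPM (interval 26.1 to 31.1) in wild-type cells and at 60.4 TPM (57.3 to 63.6) in T29I cells, a 2.12-fold higher level, from an estimated 526 and 1418 reads. Its log2 ratio was 1.06 as deposited, 1.95 relative to the shift and 1.07 after adjustment. Cdkn1a and Trp53 were the 2 genes of the 10 whose ratio was above 0 on each of the 6 scales tried, and Mdm2, Mdm4 and Polk the 3 below 0 on each. The other 5 changed sign between scales, and did so only with a length and GC adjustment. The 6 scales are not independent checks, since a change of pseudocount cannot turn a sign and centring only raises a ratio. The same count was not made over all genes. Ccng1, which encodes cyclin G1 and is a p53 target in many tissues, had 174 TPM (168 to 181) in wild-type and 62.2 TPM (59.0 to 65.4) in T29I cells, a 2.81-fold lower level. Its log2 ratio was -1.47 as deposited and -0.58 relative to the shift, and it was 0.17 after adjustment, so that its direction did not hold. Cdkn1a and Ccng1, far apart in the wild-type library, lay within counting error of each other in the T29I library. The merged exon length did not give whole reads for Cdkn1a, so this comparison of 2 genes is approximate.

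The 3 members that promote cell death or curb survival signalling were higher in the T29I library in the deposited values and lower after the length and GC adjustment. Bax, a pore-forming protein of the mitochondrial outer membrane, had the highest level of the 10 genes in both libraries, at 435 TPM (421 to 449.6) and 613 TPM (599 to 629), a 1.41-fold higher level. Bbc3, which encodes the BH3-only protein Puma, had 33.0 TPM (29.7 to 36.6) in wild-type and 51.8 TPM (48.1 to 55.7) in T29I cells, a 1.57-fold higher level. Phlda3, which encodes a small inhibitor of Akt signalling, had 80.2 TPM (74.1 to 86.6) in wild-type and 138 TPM (131 to 145) in T29I cells, a 1.72-fold higher level. Their log2 ratios were 0.49, 0.63 and 0.77 in the deposited values and 1.39, 1.53 and 1.67 relative to the shift, but -1.33, -1.08 and -0.70 after adjustment. All 3 lie among the shortest 20% of protein-coding genes, with a median log2 ratio of 0.26, and among the 20% of highest GC content, with a median of 0.34. Their deposited ratios thus lay above the medians of both classes, and the joint trend for genes of their length and GC content ran from 1.47 for Phlda3 to 1.82 for Bax.

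Zmat3 and Polk, the members that act on RNA and on DNA, were lower in the T29I library as deposited. Zmat3, which encodes a zinc finger protein that binds RNA, had 54.2 TPM (52.3 to 56.1) in wild-type and 14.8 TPM (13.9 to 15.7) in T29I cells, a 3.66-fold lower level, with a log2 ratio of -1.80 as deposited, -0.91 relative to the shift and 0.44 after adjustment. Its longest transcript of 7797 bases was the longest of the 10 genes. Polk, which encodes DNA polymerase kappa, an enzyme that copies past damaged bases, was the lowest of the 10 genes in both libraries. It had 13.6 TPM (12.3 to 15.1) in wild-type and 0.518 TPM (0.312 to 0.809) in T29I cells, a 26.3-fold lower level, from 393 and 19 estimated reads. The log2 ratio of Polk was -3.27 as deposited, -2.37 relative to the shift and -1.50 after adjustment, and -4.47 with a pseudocount of 0.1 TPM in place of 1, because its T29I level lies below 1 TPM.

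**Figure D2:**
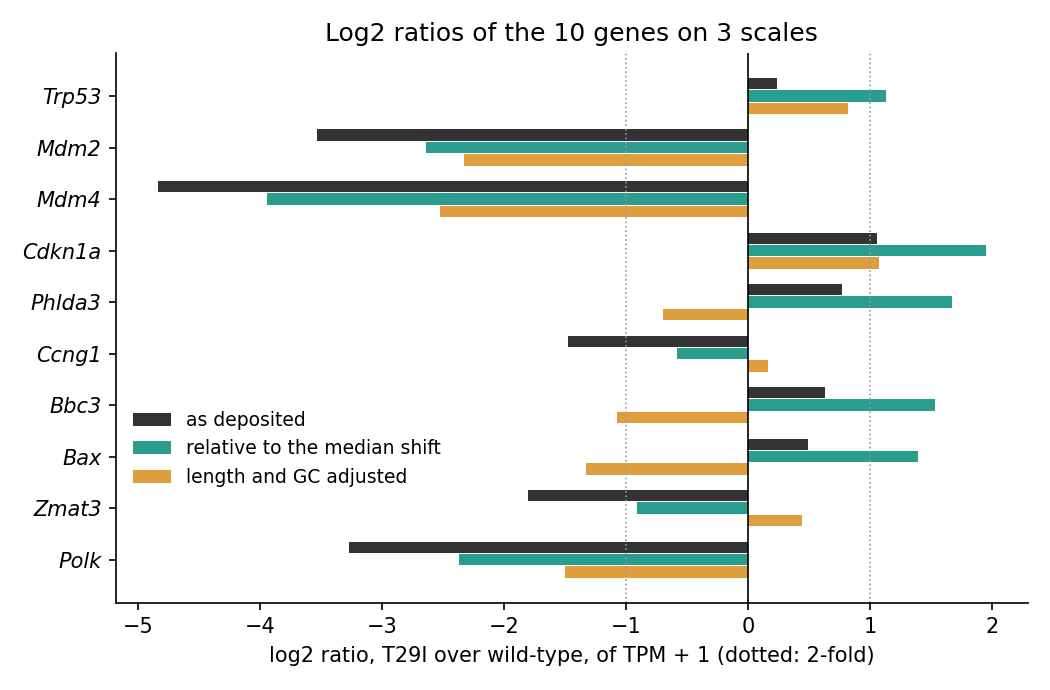
Log2 ratio of T29I over wild-type for the 10 genes as deposited, relative to the median shift and after the length and GC adjustment; dotted lines mark 2-fold. Mdm2, Mdm4 and Polk stay below -1 on all 3 scales and Cdkn1a above 1, whereas the bars of Phlda3, Ccng1, Bbc3, Bax and Zmat3 point both ways.

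Of the 10, 5 were lower by 2-fold or more (Mdm2, Mdm4, Polk, Zmat3 and Ccng1) and 1 higher to that extent (Cdkn1a), against 45.7% lower and 9.97% higher among all genes averaging at least 1 TPM. These shares are near the background. The median log2 ratio was -0.62 for the 10 genes and -0.84 for all. Relative to the shift, 3 were lower (Mdm2, Mdm4 and Polk), against 22.2% of all genes, and 5 higher (Trp53, Cdkn1a, Phlda3, Bbc3 and Bax), against 26% of all genes. After adjustment 5 were lower (Mdm2, Mdm4, Polk, Bax and Bbc3), against 15.5%, and 1 higher (Cdkn1a), against 17.6%, with a median of -0.89 for the 10 genes and 0.040 for all.

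Across the 10 genes the deposited ratio followed transcript length and GC content much as it did across the transcriptome. Spearman's rho of the log2 ratio was -0.72 with length (longest transcript) and 0.73 with GC content, against -0.49 and 0.54 over 12121 protein-coding genes, given as descriptions since the genes share 2 libraries. The 5 genes with a lower level all lay in the 40% of lowest GC content, from Polk, Ccng1 and Mdm4 at 40.8% to 43.3% up to Mdm2 and Zmat3 at 46.2% and 47.6%. The 5 with a higher level all had a GC content of at least 53.3%. After adjustment rho was -0.067 with length and 0.24 with GC content.

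**Figure D3:**
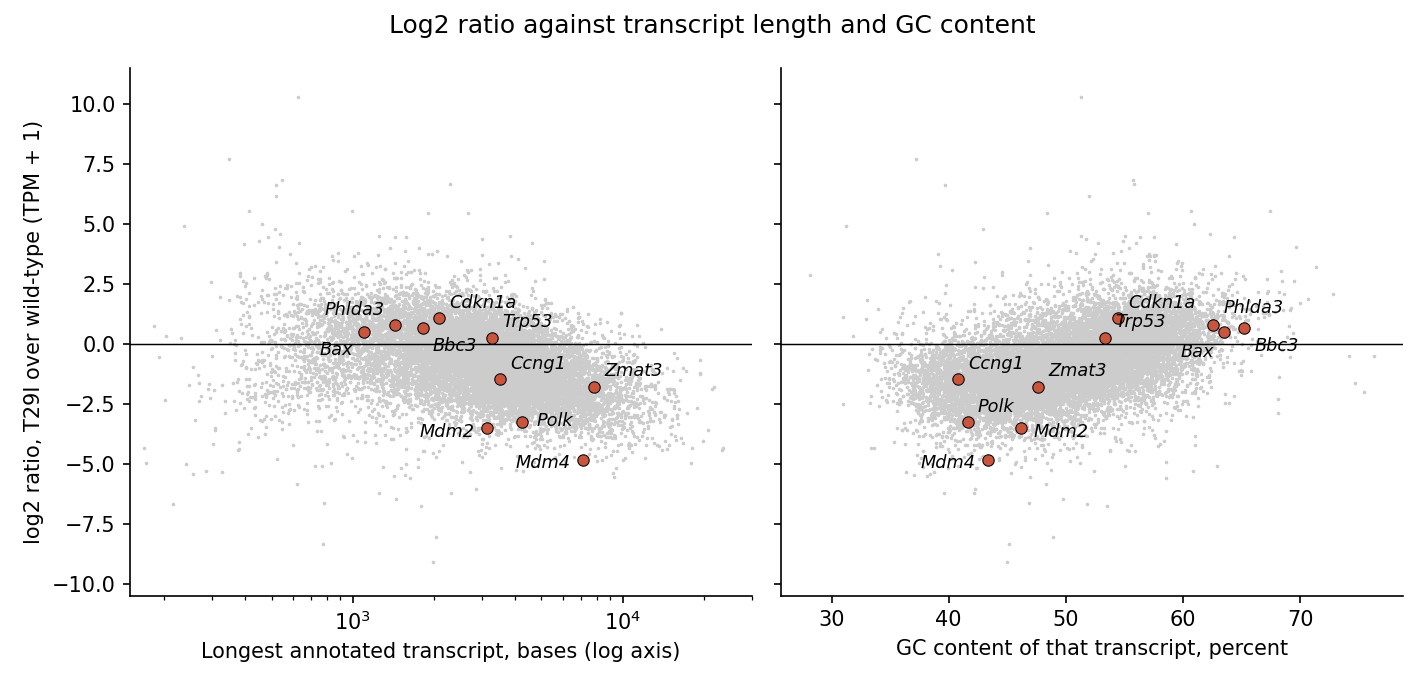
Log2 ratio of T29I over wild-type against the length of the longest annotated transcript (left, log axis) and its GC content (right); grey points are genes averaging at least 1 TPM and red points the 10 genes. Bax, Bbc3 and Phlda3 sit with the short and GC-rich genes near or above 0, and Mdm4, at -4.84, lies at the lower edge of the grey points around it.

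The order of the 10 levels differed between the libraries below the 2 most abundant genes. In the wild-type library it ran Bax, Trp53, Ccng1, Phlda3, Mdm2, Mdm4, Zmat3, Bbc3, Cdkn1a and Polk, where Phlda3 and Mdm2, and Bbc3 and Cdkn1a, lay within counting error of each other. In the T29I library it ran Bax, Trp53, Phlda3, Ccng1, Cdkn1a, Bbc3, Zmat3, Mdm2, Mdm4 and Polk, where Ccng1 and Cdkn1a did. Mdm2 and Mdm4 thus lay above Cdkn1a, Bbc3 and Zmat3 in the first order and below them in the second. The merged exon length did not give whole reads for Mdm4, Cdkn1a and Zmat3, so their places in both orders are approximate. The 10 genes summed to 1329 TPM in the wild-type and 1391 TPM in the T29I library.

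The genes that act on p53 had deposited ratios from that of Atm to that of Cdkn2a. Of 25 symbols in that list 24 were found, all averaging at least 1 TPM, since 2 of the symbols name 1 gene. As deposited 13 of the 24 were lower by 2-fold or more and 1 higher, against 45.7% and 9.97% of all genes, with a median log2 ratio of -1.62. After adjustment 5 were lower and 2 higher, against 15.5% and 17.6%, with a median of -0.14. Atm, the kinase that signals DNA double-strand breaks to p53, was at 31.7 and 0.805 TPM with a log2 ratio of -4.18, and -1.34 after adjustment. Ep300, a histone acetyltransferase that also acetylates p53, was at 55.3 and 4.32 TPM, with -3.40 and -1.03. Prkdc, the catalytic subunit of the DNA-dependent protein kinase, was at 13.9 and 0.597 TPM with -3.22, and 0.039 after adjustment. At the other end, Cdkn2a, whose product Arf inhibits Mdm2, was at 2.14 and 10.6 TPM with a log2 ratio of 1.89, and 0.55 after adjustment. Its gene also encodes the kinase inhibitor p16, and the table does not separate them. Aurka, a mitotic kinase that phosphorylates p53, was at 164 and 200.5 TPM, and Trp53rka, a p53-regulating kinase, at 31.8 and 28.3 TPM. The p53 relatives were low, with Trp73 at 3.31 and 1.504 TPM and Trp63 at 0.0459 and 0.0361 TPM.

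Other p53 targets were grouped into 4 lists by function. Of the 48 found, 43 had an average of at least 1 TPM, and 21 of these were lower by 2-fold or more and 5 higher as deposited, against 45.7% and 9.97% of all genes, with a median of -0.98. After adjustment 8 were lower and 2 higher, against 15.5% and 17.6%, with a median of -0.37. Among 11 measured targets of cell death, 8 were at least 2-fold lower and 0 higher as deposited (all genes 45.7% and 9.97%), and 3 and 0 after adjustment (15.5% and 17.6%). The lowest was Perp, a membrane protein gene, at 83.3 and 9.62 TPM with a log2 ratio of -2.99, and -2.31 after adjustment. Eda2r, a receptor of the tumour necrosis factor receptor family, was at 27.7 and 3.70 TPM, and Apaf1, the core of the apoptosome, at 13.8 and 1.83 TPM, with adjusted values of -0.69 and -0.32. Bid, a BH3-only protein gene, was at 32.0 and 15.8 TPM, Tnfrsf10b, a death receptor, at 23.8 and 17.9 TPM, and Siva1 at 192 and 201 TPM. Bax and Bbc3 thus had deposited ratios above those of all 6 named genes of this list. This order did not hold after adjustment, where Bax and Bbc3 were at -1.33 and -1.08. Of the 6 genes only Perp then lay below them, and Bid, Tnfrsf10b and Siva1 were at -0.47, 0.59 and 0.19.

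Among 8 DNA repair targets 6 were at least 2-fold lower and 0 higher as deposited (all genes 45.7% and 9.97%), and 2 and 0 after adjustment (15.5% and 17.6%). Rev3l, the catalytic subunit of DNA polymerase zeta, was at 22.6 and 0.911 TPM with a log2 ratio of -3.63, and -0.62 after adjustment. Polh, which encodes DNA polymerase eta and acts past damaged bases as Polk does, was at 15.7 and 2.06 TPM with -2.45, and -1.34 after adjustment. Ercc5, a nuclease of nucleotide excision repair, was at 23.4 and 2.76 TPM, with an adjusted value of -1.26. Xpc, which recognises bulky damage, was at 9.64 and 7.08 TPM and Fancc, of the Fanconi pathway, at 5.97 and 5.03 TPM. Polk, Polh and Rev3l, all polymerases that act past lesions, had adjusted ratios of -1.50, -1.34 and -0.62.

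Of 10 measured cell cycle arrest targets 4 were at least 2-fold lower and 1 higher as deposited, near the 45.7% and 9.97% of all genes, and 3 and 1 after adjustment (all genes 15.5% and 17.6%). Plk3, a polo-like kinase gene, was at 43.3 and 94.9 TPM with a log2 ratio of 1.11, close to the 1.06 of Cdkn1a, and 0.74 after adjustment. Plk2, its relative, was at 41.3 and 7.67 TPM with -2.29, and -1.34 after adjustment. Gadd45a, a stress sensor, was at 57.6 and 26.9 TPM, Tob1, an antiproliferative gene, at 45.8 and 15.5 TPM, Btg2, of the same family, at 26.4 and 17.9 TPM, and Gtse1, whose product curbs p53, at 247 and 141 TPM. Only Btg2 and Plk3 of these 6 had an adjusted ratio above 0. Trp53cor1, the long non-coding RNA lincRNA-p21 that lies near Cdkn1a, was chosen after its values were seen. From 5 estimated reads it had 0.261 TPM in wild-type cells, and it was listed at 0 for T29I.

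Targets of metabolism and feedback were the one list with a deposited median above 0. Of 14 measured genes 3 were at least 2-fold lower and 4 higher as deposited (all genes 45.7% and 9.97%), and 0 and 1 after adjustment (15.5% and 17.6%), with medians of 0.10 and 0.088. Ddit4, an inhibitor of mTOR signalling that low oxygen and other stresses also induce, was at 42.5 and 368 TPM with a log2 ratio of 3.08, and 2.50 after adjustment. Dcxr, a sugar reductase gene, was at 13.5 and 61.1 TPM and Fdxr, the mitochondrial ferredoxin reductase, at 12.3 and 36.6 TPM, with adjusted values of 0.80 and 0.70. Sesn1, a stress-induced inhibitor of mTOR signalling, was at 25.9 and 5.89 TPM, Trim32, a ubiquitin ligase gene, at 22.8 and 7.74 TPM and Tigar, a regulator of sugar breakdown, at 62.2 and 29.9 TPM, with adjusted values of -0.87, -0.73 and 0.061. The 2 genes of these lists with a deposited ratio nearest to the 0.24 of Trp53 were Gls2, a mitochondrial glutaminase, at 0.27 and Gpx1, a glutathione peroxidase, at 0.28, a likeness over 2 libraries only.

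**Figure D4:**
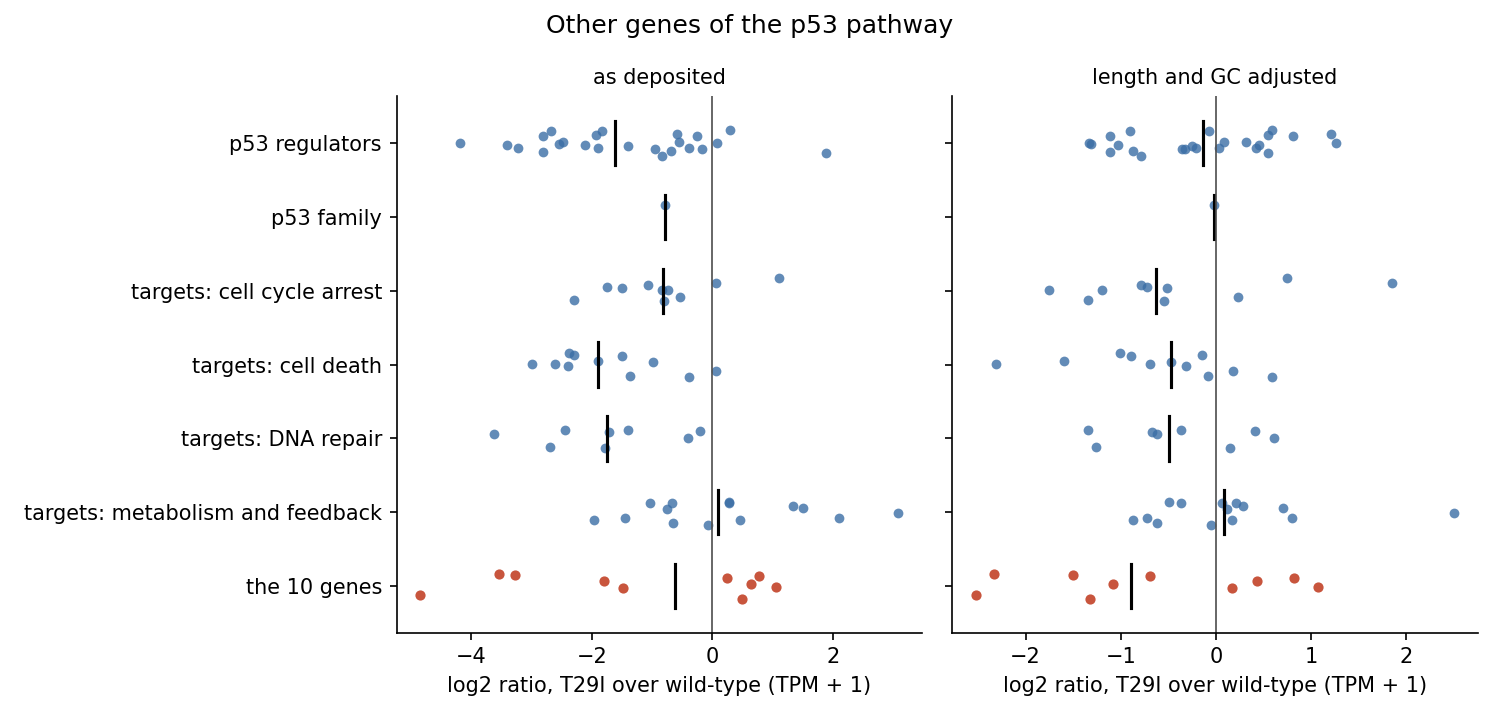
Log2 ratios of T29I over wild-type for the other genes of the p53 pathway by list (blue) and the 10 genes (red), as deposited (left) and after the length and GC adjustment (right); each point is a gene averaging at least 1 TPM, shifted vertically at random, and black bars are medians. The medians of the blue lists range from -1.89 to 0.10 on the left and from -0.63 to 0.088 on the right.

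Over all 68 other pathway genes averaging at least 1 TPM, 34 were lower by 2-fold or more and 6 higher as deposited, again near the 45.7% and 9.97% of all genes. Relative to the shift 21 were lower and 10 higher, against 22.2% and 26% of all genes, and after adjustment 13 were lower and 4 higher, against 15.5% and 17.6% of all genes. On each of the 6 scales 28 of the 68 had a ratio below 0, among them Atm, Ep300, Perp, Polh, Rev3l, Plk2 and Sesn1, and 12 a ratio above 0, among them Cdkn2a, Plk3, Ddit4, Dcxr and Fdxr. The other 28 changed sign between scales. The same count was not made over all genes, so these numbers have no background and are no result about the pathway.

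Bax shares 192 exonic bases with Gm45808 on the same strand, which was listed at 0 in both libraries, and Cdkn1a shares 273 with a gene model of unsettled type on the opposite strand. Processed pseudogenes named for Trp53 and Mdm4 lie on chromosomes 17 and X, and the sources used here do not say how reads shared with such copies were assigned. In GENCODE M21 on GRCm38, Trp53 (ENSMUSG00000059552) lies on chromosome 11 from 69580359 to 69591873, Mdm2 (ENSMUSG00000020184) on chromosome 10 from 117688875 to 117710758, Mdm4 (ENSMUSG00000054387) on chromosome 1 from 132959484 to 133030561 and Cdkn1a (ENSMUSG00000023067) on chromosome 17 from 29090976 to 29100727. The other 6 are Phlda3 (ENSMUSG00000041801) on chromosome 1 from 135766119 to 135769136, Ccng1 (ENSMUSG00000020326) on chromosome 11 from 40748552 to 40755311, Bbc3 (ENSMUSG00000002083) on chromosome 7 from 16308393 to 16318205, Bax (ENSMUSG00000003873) on chromosome 7 from 45461697 to 45466898, Zmat3 (ENSMUSG00000027663) on chromosome 3 from 32334792 to 32366014 and Polk (ENSMUSG00000021668) on chromosome 13 from 96480690 to 96542579.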

How the data were processed

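The authors deposited 1 table with a symbol, an Ensembl identifier and a TPM value per gene for each library, and each column summed to 1000000. Isogen was used for extraction and a stranded total RNA kit that removes ribosomal RNA for the libraries, per the labels' protocols. The sources used here do not name the aligner, the counter or the build. Columns were assigned through the sample descriptions and groups through the genotype labels.

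Identifiers were matched to GENCODE M21 (51633 of 51826) for transcript length, GC content and merged exon length. TPM times merged exon length, divided by the value of 1 read, was whole within 0.05 for 81.0% and 79.9% of values (10% by chance), which gave the estimated reads. Of the 10 genes, 7 came out whole in each library. Mdm4, Cdkn1a and Zmat3 did not, so their lengths and intervals are approximate.

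Log2 ratios used TPM + 1, and counts used a 2-fold size rule among genes averaging at least 1 TPM. The adjusted scale is what remained of the log2 ratio after a second-degree surface in GC content and the log2 length of the longest transcript, with their product, was fitted to 9100 protein-coding genes averaging at least 5 TPM. The 6 scales are the deposited ratio, the ratio relative to the median shift, the adjusted ratio, a pseudocount of 0.1, rescaling without the 20 most abundant genes of either library, and, chosen after seeing the data, the adjustment with merged exon length. The calculations were tested on simulated data and run in Python 3.11.15 with numpy 2.4.6, pandas 2.3.3 and scipy 1.17.1. The 10 genes and all lists were chosen with earlier results of these data known. Named were the 10 genes, the p53 relatives and, of each other list, the 3 highest and 3 lowest deposited ratios among genes averaging at least 5 TPM, all where fewer than 7 qualified. The values of 1 gene that this rule named are not reported here. No count model was fitted, since the values are TPM and each group has 1 library.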

Additional observations from a re-analysis of the deposited data

How the results depend on the processing

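No paired analysis was possible because each group had 1 library, and no library could be left out. The number of the 10 genes at least 2-fold lower went from 5 to 3 and the number higher from 1 to 5 relative to the median shift, and the number higher to 3 at a 1.5-fold size. For the other pathway genes, the numbers lower and higher went from 34 and 6 to 21 and 10 relative to the shift, with the median log2 ratio going from -1.005 to -0.11. After the length and GC adjustment 13 were lower with a median of -0.28, and with merged exon length 14 were lower with a median of -0.35. Of single genes, Zmat3 reversed to 0.44 after adjustment and to 0.32 with merged exon length, and Ccng1 reversed to 0.17 after adjustment. Bax, Bbc3 and Phlda3, whose deposited ratios of 0.49, 0.63 and 0.77 were under 2-fold, turned to -1.33, -1.08 and -0.70 after adjustment and to -1.15, -1.05 and -0.71 with merged exon length. By construction, centring takes away a shift of -0.90 and so raises each ratio. The adjustment takes away a fitted trend, which lowers Bax, Bbc3 and Phlda3 and raises the others of the 10 genes. Beyond that the cause was not tested. The pseudocount, the filters on low values and the rescaling left all 6 counts and medians within 1.5 times or inside the spread of the genes. Depth limits Polk and Mdm4 most, with 19 and 114 estimated reads in the T29I library.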
